A study of Arabidopsis thaliana with 6 samples.

Results

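*ASN1* and 5 other sugar-repressed genes were followed in RNA-Seq counts of *Arabidopsis thaliana* embryos. The other members were *SEN1* (also *DIN1*), *DIN2*, *DIN9*, *DIN10* and AT3G15450. They were chosen as 6 named loci of the 24509 transcripts with at least 1 read in any library. The choice was made with their mRNA levels in these libraries known, both between genotypes and between WT replicate 1 and the other WT replicates. Their values are therefore given as a description, and so is the number of members that met the rule for a call. Tests are read only for other genes, whose lists were also made with earlier results of these data known. The libraries comprised 3 biological replicates of embryos labelled *wri1-1* and 3 of WT embryos, with 25 to 30 embryos in each replicate. All were of the Col-0 ecotype and were dissected 8 d after pollination from plants grown in 16 h of light and 8 h of dark. *WRI1* encodes a transcription factor of seed oil synthesis, and the mutant carries *wri1-1* in the whole plant, so that the maternal tissues around the dissected embryo differed between groups as well.

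Plant cells that run short of sugar, as leaves do in prolonged darkness, activate the kinase SnRK1, which shifts transcription from growth to the use of stored carbon and amino acids. The dark-inducible (*DIN*) genes were named for their rise in darkened *Arabidopsis* leaves, and sugar feeding represses them. *ASN1* encodes asparagine synthetase, which makes asparagine as a form of nitrogen that costs little carbon, and it is widely used as a readout of SnRK1 activity. Among the factors that act in this response are bZIP proteins, which bind DNA at sites built on an ACGT core. *DIN* mRNAs also rise in senescing leaves, and the gene name *SEN1* comes from that setting.

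The stretches before the genes' 5′ ends are shown for the 3 members whose 300-base window held the letters ACGTG on either strand, with those letters in capitals. They are *ASN1* (chr3:17441568-17441731, minus strand), *DIN10* (chr5:6833264-6833563, plus strand) and AT3G15450 (chr3:5212684-5212983, plus strand), from the TAIR10.1 assembly. The *ASN1* stretch stops where an exon of another gene begins, 137 bases before its 5′ end. Bases are counted back from the outermost 5′ end of any transcript of the gene. For *DIN10* this end lies before that of the counted transcript, whose coordinates are given below.
ASN1: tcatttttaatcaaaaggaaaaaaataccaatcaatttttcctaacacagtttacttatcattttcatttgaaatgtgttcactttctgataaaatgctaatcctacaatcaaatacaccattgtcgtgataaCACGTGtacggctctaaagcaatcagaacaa
DIN10: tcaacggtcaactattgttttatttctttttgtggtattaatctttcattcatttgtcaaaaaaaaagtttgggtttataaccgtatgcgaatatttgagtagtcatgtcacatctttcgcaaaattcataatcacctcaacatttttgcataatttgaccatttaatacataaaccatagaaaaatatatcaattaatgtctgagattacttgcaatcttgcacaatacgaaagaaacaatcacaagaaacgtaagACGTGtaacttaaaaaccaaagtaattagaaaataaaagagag
AT3G15450: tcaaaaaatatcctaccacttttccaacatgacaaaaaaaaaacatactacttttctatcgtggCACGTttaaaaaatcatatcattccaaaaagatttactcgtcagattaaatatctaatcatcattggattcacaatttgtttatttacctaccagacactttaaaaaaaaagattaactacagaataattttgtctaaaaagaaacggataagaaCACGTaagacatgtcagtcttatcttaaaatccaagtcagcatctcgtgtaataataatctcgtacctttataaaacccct
In *ASN1*, CACGTG (the G Box) stood at -167 to -162 and holds ACGTG on both strands. In *DIN10*, ACGTG stood at -43 to -39, and in AT3G15450 its reverse complement stood at -236 to -232 and at -81 to -77. ACGTG on either strand was present in 25.9% of all 24168 windows of this length and CACGTG in 7.51%, so these letters are frequent. The other letters searched on both strands were ACTCAT, found in *DIN9* at -94 to -89 and in 14.7% of windows, and TATCCA, found in *ASN1* at -101 to -96 and in 16.4%. Of the motifs that the study placed in WRI1-bound regions, CNCCNCC (the CNC Box) was found in *ASN1* and *SEN1* and in 12% of windows, and the AW Box in *SEN1* and in 11%. The study found most soybean WRI1 binding after the start of transcription, which these windows do not cover. In *ASN1*, 136 bases of the window lie in exons of other genes, and its TATCCA and CNCCNCC (-55 to -49) matches fall among them. In *SEN1*, 100 bases of the window lie in exons of other genes. No letters searched were in the *DIN2* window. These matches describe the sequence and were not tested as binding sites.

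In the libraries as a whole, the reads counted on transcripts numbered from 8510887 to 18933870. CPM give reads per 1e+06 over all tested genes, with library sizes scaled by TMM. Where no read was found, up to 3 reads are allowed for by counting error, equal to 0.148 to 0.338 CPM depending on the library. *WRI1* mRNA was between 1042 and 1256 CPM in the libraries labelled *wri1-1* and between 148 and 186 in WT, so that no loss of transcript was seen. The level of an mRNA does not show whether its protein works, and each direction below rests on the labels. In the library labelled *wri1-1* replicate 1, 86.6% of the deposited total named no transcript, against 39.6% to 45.0% in the others. WT replicate 1 stood apart from the other WT libraries, with a chi-square per degree of freedom of 94.3 and 83.3 against them and 7.05 between WT replicates 2 and 3. The embryo markers, which include the seed storage globulin *CRA1* and the oleosin *OLEO1*, summed to between 3486 and 7290 CPM over the libraries. Markers of endosperm summed to between 73.4 and 396 CPM and those of seed coat to between 384 and 607.

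The first question was how the 6 mRNAs differed between embryos labelled *wri1-1* and WT. *ASN1*, *DIN10* and AT3G15450 were lower in every library labelled *wri1-1* than in any WT library. *SEN1* was lower than in 2 of the 3 WT libraries, *DIN2* was close to the counting limit in all but 1 library, and *DIN9* did not follow the others. Of the 4 members that passed the filter on low counts, 3 met the rule for a lower call (adjusted p of at most 0.05 and a log2 fold change below -1), and none met it for a higher call. Of all 18241 genes tested, 968 (5.31%) were called lower and 197 (1.08%) higher. The members were chosen on this contrast, so nothing is read from their count. In bulk samples, fewer cells of a type and less mRNA per cell cannot be told apart.

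*ASN1* (AT3G47340, chromosome 3, 17437840 to 17441431, minus strand, 10 exons) had no read in any of the 3 libraries labelled *wri1-1*. In WT replicates 1, 2 and 3 it had 43, 1155 and 403 reads, or 3.38, 102 and 34.8 CPM. The groups did not overlap, and the WT libraries differed widely among themselves. Against a limit of 3 reads in each library labelled *wri1-1*, the WT mean of 46.8 ± 50.5 CPM (SD, n = 3) was at least 184-fold higher, and at least 75.2-fold without WT replicate 2. Against the highest limit of 0.338 CPM, WT replicate 1 was at least 9.99-fold higher. The transcript shares 11 bases with an exon on the other strand, and counting did not use strand.

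AT3G15450 (chromosome 3, 5212984 to 5214121, plus strand, 3 exons) encodes a protein of the aluminium-induced family, whose members hold a domain like the glutamine amidotransferase part of asparagine synthetase. It had 0.915, 1.82 and 3.38 CPM in the libraries labelled *wri1-1* and 291, 1728 and 1290 CPM in WT, for replicates 1 to 3. This was the widest separation among the members that were detected in both groups. The means were 2.04 ± 1.25 and 1103 ± 736 CPM (SD, n = 3 each), a 541-fold difference with a log2 fold change of -9.12 (SE 0.887). Even the lowest WT library was 86.2-fold above the highest library labelled *wri1-1*. It shares 38 bases with an exon on the other strand.

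*DIN10* (AT5G20250, chromosome 5, 6833659 to 6836782, plus strand, 5 exons) encodes a glycoside hydrolase of the raffinose synthase and seed imbibition family. Its CPM was 25.8, 15.6 and 26.0 in the libraries labelled *wri1-1* and 32.6, 411 and 283 in WT. WT replicate 1 lay only 1.25-fold above the highest library labelled *wri1-1*, whereas the other WT libraries lay far above all of them. The means were 22.5 ± 5.97 and 242 ± 192 CPM (SD, n = 3 each), with a log2 fold change of -3.44 (SE 0.815).

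*SEN1* (AT4G35770, chromosome 4, 16944878 to 16946241, plus strand, 5 exons) encodes a small protein with a rhodanese-like domain. It had 2, 1 and 2 reads in the libraries labelled *wri1-1* and 1, 208 and 63 reads in WT. In CPM, these were 0.183, 0.0493 and 0.226 against 0.0785, 18.4 and 5.43. WT replicate 1 thus fell within the range of the libraries labelled *wri1-1*, and its Poisson 95% interval was 0.00199 to 0.438 CPM. *SEN1* did not pass the filter on low counts.

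*DIN2* (AT3G60140, chromosome 3, 22216540 to 22220824, plus strand, 12 exons) encodes the β-glucosidase BGLU30. It had 0, 0 and 1 reads in the libraries labelled *wri1-1* and 0, 16 and 3 in WT, and did not pass the filter. Only WT replicate 2, at 1.42 CPM (Poisson 95% interval 0.809 to 2.30), was above the intervals of all 3 libraries labelled *wri1-1*, and a difference in the rest was not detectable at this depth. *DIN9* (AT1G67070, chromosome 1, 25041833 to 25044647, plus strand, 5 exons) encodes the phosphomannose isomerase PMI2, which interconverts mannose and fructose phosphates. Its CPM was 1.92, 2.91 and 4.85 in the libraries labelled *wri1-1* and 1.41, 2.21 and 1.21 in WT. The groups overlapped, the log2 fold change was 0.99 (SE 0.447), and *DIN9* did not meet the rule.

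**Figure D1:**
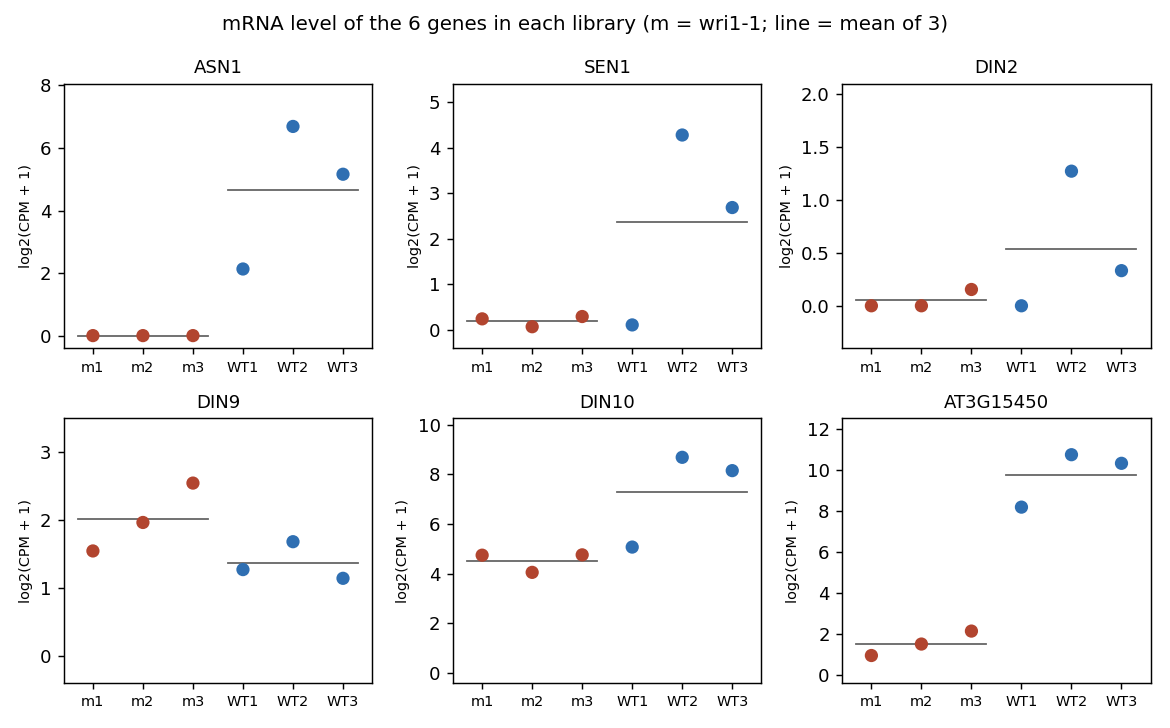
mRNA level of each of the 6 genes in each library, as log2(CPM + 1). Points are libraries (m1 to m3 are *wri1-1* replicates 1 to 3, red, and WT1 to WT3 are WT replicates 1 to 3, blue), lines are means of the 3 log2 values, and each panel has its own scale. WT replicate 1 is the lowest WT library for *ASN1*, *SEN1*, *DIN2*, *DIN10* and AT3G15450, and *ASN1* is at 0 in all 3 libraries labelled *wri1-1*.

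Levels were compared between members per length of transcript, as reads per kilobase per 1e+06 reads (RPKM). In WT the order of mean RPKM was AT3G15450 (1160 ± 774, SD, n = 3), *DIN10* (88.0 ± 69.9), *ASN1* (19.2 ± 20.7), *SEN1* (7.96 ± 9.40), *DIN9* (0.911 ± 0.300) and *DIN2* (0.271 ± 0.366). The first 3 held this order in each WT library, and *SEN1* was below *ASN1* in each. The spread between WT libraries was wide, so that the ranges of mean ± SD overlapped for *ASN1* and its neighbours in the order. In the libraries labelled *wri1-1* the order was *DIN10* (8.16 RPKM), AT3G15450 (2.15), *DIN9* (1.83), *SEN1* (0.152), *DIN2* (0.0182) and *ASN1* (0). *DIN10* thus kept a measurable level there, and AT3G15450, the highest member in WT, was close to the lowly expressed *DIN9*.

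The second question was how WT replicate 1 compared with WT replicates 2 and 3. For 5 of the 6 members it was more than 2-fold below the lower of them. The exception was *DIN9*, which was 1.17 times the lower value. This fold was exceeded by 6.89% of all genes tested, and the members had been chosen on it. The mean of WT replicates 2 and 3 was 20.3-fold above WT replicate 1 for *ASN1*, 152-fold for *SEN1* (on 1 read in WT replicate 1, whose interval is given above), 10.6-fold for *DIN10* and 5.18-fold for AT3G15450. For *DIN2*, WT replicate 1 had 0 reads and WT replicate 3 had 3, which are within counting error of each other. With 1 library against 2 there is no test of this difference. The genotype comparison uses the same WT libraries, so the differences between genotypes are not independent of it.

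The members thus differed in where WT replicate 1 lay. For *SEN1* it lay within the libraries labelled *wri1-1*, for *DIN10* it was just above them, and for AT3G15450 it was 143-fold above their mean while also 5.18-fold below the other WT libraries. Summed over the 6 genes, the level was 20.4 to 34.6 CPM in the libraries labelled *wri1-1*, 329 in WT replicate 1, and 2263 and 1614 in WT replicates 2 and 3, with AT3G15450 the main part of the sum in WT.

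Homologs of the members were read next, since none of them was used in the choice. Of 12 tested, 1 was called lower and none higher, and their median log2 fold change was -0.60, against -0.01 over all genes tested, of which 6.39% were called in either direction. In edgeR, 6 were lower and 1 higher at an unadjusted p under 0.05, as were 15.3% and 9.86% of all genes tested. *BGLU29*, a β-glucosidase gene related to *DIN2*, was the one called lower. Its CPM was 37.9, 25.4 and 40.7 in the libraries labelled *wri1-1* and 100, 105 and 123 in WT, with a log2 fold change of -1.67 (SE 0.203, edgeR adjusted p = 0.00315). *BGLU29* was at a like level in all 3 WT libraries. Of the homologs of *SEN1*, *STR16* and *STR18* were tested. Neither was called (log2 fold changes -0.23 and -1.02, edgeR adjusted p = 0.749 and 0.0919). In WT, *STR16* had 36.9, 13.3 and 14.1 CPM and *STR18* had 171, 70.4 and 94.4. WT replicate 1 was thus the highest WT library for both, unlike for *SEN1*. In the libraries labelled *wri1-1* they were at 17.3 to 18.9 and at 48.0 to 59.1 CPM.

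The other asparagine synthetase genes did not show the pattern of *ASN1*. *ASN2* had 37.9, 47.2 and 45.0 CPM in the libraries labelled *wri1-1* and 65.0, 64.8 and 65.3 in WT. The groups did not overlap and the adjusted p was 0.0321 (edgeR), but the log2 fold change of -0.58 (SE 0.129) was short of the fold minimum. *ASN3* was 97.2 ± 12.3 CPM against 69.9 ± 9.84 in WT (SD, n = 3 each), with a log2 fold change of 0.48 (adjusted p = 0.111, edgeR). *PMI1*, the other phosphomannose isomerase gene, had a log2 fold change of -0.05 (SE 0.142).

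Of the homologs of *DIN10*, *SIP2*, which encodes an α-galactosidase acting on raffinose, had a pattern of the same form as *DIN10*. It was at 62.4, 69.8 and 62.0 CPM in the libraries labelled *wri1-1* and at 55.8, 251 and 235 CPM in WT. WT replicate 1 was the lowest of the 6 libraries, and the log2 fold change of -1.48 did not pass the test (edgeR adjusted p = 0.114). *SIP1* had the opposite placement of WT replicate 1, at 75.6 CPM against 20.2 and 15.0. Without WT replicate 1, *SIP2* was called lower (log2 fold change -1.91) and *SIP1* higher (1.37), and with *BGLU29* and *AT4G27450* (-1.04, adjusted p = 0.0409, edgeR) 4 homologs were called. Of the 4 homologs of AT3G15450, *AT4G27450* and *AILP1* were lower in every library labelled *wri1-1* than in every WT library. This held for 18.9% of all genes tested. *AT4G27450* had 82.4, 42.0 and 91.7 CPM in the libraries labelled *wri1-1* and 271, 137 and 155 CPM in WT. *AILP1* had 71.8, 75.8 and 84.2 CPM against 218, 99.7 and 110. In both, WT replicate 1 was the highest WT library, unlike in AT3G15450. *AILP1* (log2 fold change -0.89), AT5G43830 (-0.61) and AT3G22850 (-0.21) were not called. The log2 fold change of *AT4G27450* was -1.39 (edgeR adjusted p = 0.0559). With the replicate block *AT4G27450* was called lower (-1.40, adjusted p = 0.0213) and 2 homologs were called.

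Other genes that starvation and SnRK1 raise were then counted, from a list of 34 that did not hold the 6 members. The list was made with earlier results of these data known, so its counts are not an independent test. Of 32 analysed, 29 were tested, and 19 of these were called lower in the libraries labelled *wri1-1*, none higher, and 10 were not called. Over all genes tested, 5.31% were called lower. The median log2 fold change of the list was -1.63, against -0.01 over all genes, and 28 of the 29 values were below 0. In edgeR, 24 were lower and 1 higher at an unadjusted p under 0.05, as were 15.3% and 9.86% of all genes tested, and neither DESeq2 nor limma-voom called any higher. The summed level of the list was 891 to 943 CPM in the libraries labelled *wri1-1* and 1562 to 3427 CPM in WT. *BZIP1* and *BZIP53* were not analysed here.

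Among the 19, the genes of branched-chain amino acid breakdown stood at a like level in all WT libraries for most members. *DIN4*, which encodes the E1 β subunit of the branched-chain ketoacid dehydrogenase, had 10.6, 9.91 and 9.70 CPM in the libraries labelled *wri1-1* and 101, 112 and 113 CPM in WT. The replicates lay close together in both groups, and the log2 fold change was -3.43 (SE 0.130, edgeR adjusted p = 7.19e-05). *DIN3*, the E2 subunit gene, had 63.3, 60.6 and 66.7 CPM against 238, 198 and 201, with a log2 fold change of -1.74 (SE 0.134, edgeR adjusted p = 4.94e-04). The E1 α gene *BCKDH E1A1* (-1.63) and *IVD*, for isovaleryl-CoA dehydrogenase (-1.01), were also called lower.

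*MCCA*, for the α subunit of methylcrotonyl-CoA carboxylase, was called lower (-1.35) and its partner *MCCB* was not (-0.44, edgeR adjusted p = 0.115). *MCCA* shares 300 bases with an exon on the other strand, and with the replicate block its adjusted p was 0.0636. *BCAT2*, a branched-chain aminotransferase gene, had a log2 fold change of -0.57 and was not called. This pathway therefore held both called and uncalled genes.

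Nitrogen genes nearer to *ASN1* differed in how WT replicate 1 stood. *GDH2*, a glutamate dehydrogenase gene, had 77.2, 61.5 and 61.8 CPM in the libraries labelled *wri1-1* and 97.6, 643 and 505 CPM in WT. Its log2 fold change was -2.63 (SE 0.610, edgeR adjusted p = 0.0367), and with the replicate block the adjusted p was 0.0853. *GDH1* went the other way, at 159 ± 22.3 against 107 ± 20.3 CPM (SD, n = 3 each), and was not called (log2 fold change 0.56, edgeR adjusted p = 0.0987). *PRODH1*, for proline dehydrogenase, was at 249 to 311 CPM in the libraries labelled *wri1-1* and at 339, 1013 and 869 CPM in WT, and was just past the adjusted p allowed (log2 fold change -1.42, edgeR adjusted p = 0.0571). Without WT replicate 1 it was called lower (-1.77).

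Regulators and signalling genes made up a further group. *CHYR1*, which encodes a RING ubiquitin ligase, had the lowest log2 fold change of the list (-6.09, SE 1.12, edgeR adjusted p = 0.016). Its CPM was 2.83, 2.56 and 1.69 in the libraries labelled *wri1-1* and 12.2, 296 and 185 in WT. WT replicate 1 was 4.29-fold above the highest library labelled *wri1-1* and 0.0658 times the lower of the other WT libraries. *BZIP63*, a bZIP factor that SnRK1 phosphorylates, had 6.58, 6.75 and 5.64 CPM against 29.5, 37.3 and 34.9, with no such gap (log2 fold change -2.42, SE 0.166, edgeR adjusted p = 3.3e-04). *KINBETA1*, a β subunit gene of SnRK1 itself, was called lower (-1.30), as were the F-box gene *KMD4* (-1.74) and the BTB/TAZ gene *BT2* (-3.50). The class II trehalose phosphate synthase genes *TPS8* (-3.37), *TPS9* (-1.89) and *TPS11* (-2.28) were called lower, whereas *TPS10* (-0.93) missed the fold minimum. Trehalose 6-phosphate is a signal of sucrose supply, although the class II proteins are not known to make it in quantity.

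The dormancy-associated genes *DRM1* (-4.51) and *DRM2* (-3.42), which mark arrested buds and other growth arrest, were both called lower. *DRM1* was at 1.83, 2.61 and 1.47 CPM in the libraries labelled *wri1-1* and at 12.5, 76.5 and 51.1 CPM in WT. *MEE14* (-3.18), the hexose transporter gene *STP1* (-2.20) and the glycerate kinase gene *GLYK* (-1.16) completed the genes called lower. *EXL1*, *PP2-A13*, *BGAL4*, *BXL1* and *UGE1* were not called, with log2 fold changes between -0.78 and -0.08.

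**Figure D2:**
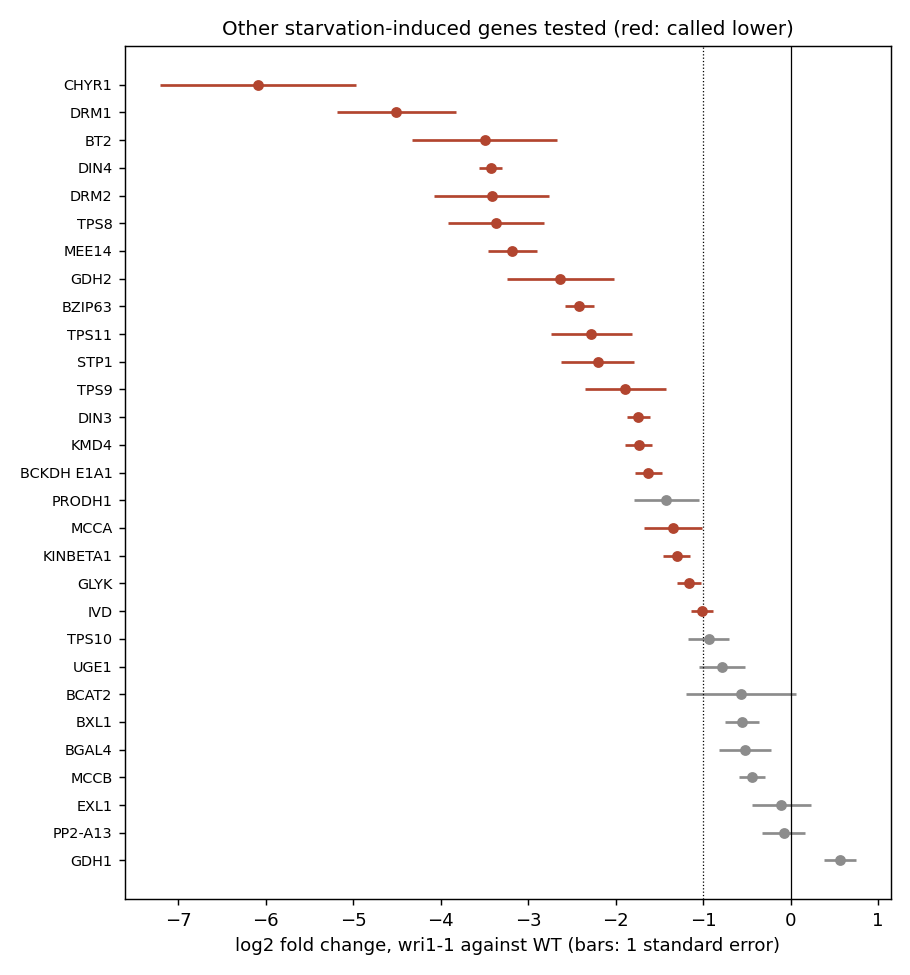
Log2 fold change of the 29 other starvation-induced genes tested, *wri1-1* against WT (edgeR, 3 libraries each). Bars are 1 standard error, red marks the 19 genes called lower, the dotted line is the fold minimum at -1, and the values run from -6.09 for *CHYR1* to 0.56 for *GDH1*.

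The 19 genes called lower fell into those that shared the low level in WT replicate 1 and those that did not. In 10 of them (*MCCA*, *GDH2*, *DRM1*, *DRM2*, *TPS8*, *TPS9*, *TPS11*, *CHYR1*, *BT2* and *STP1*), WT replicate 1 was more than 2-fold below the lower of the other WT libraries, and in the other 9 it was not. Over all genes tested this fold was exceeded by 6.89%. The call held in every fit with 1 library left out for 0 of those 10 genes and for 8 of the other 9. Of the 29 tested, called or not, 24 were lower in every library labelled *wri1-1* than in every WT library, which held for 18.9% of all genes tested. The number called lower was 8, 10 and 9 without *wri1-1* replicates 1, 2 and 3, and 21, 13 and 12 without WT replicates 1, 2 and 3. Limma-voom on all 6 libraries called 10 lower.

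**Figure D3:**
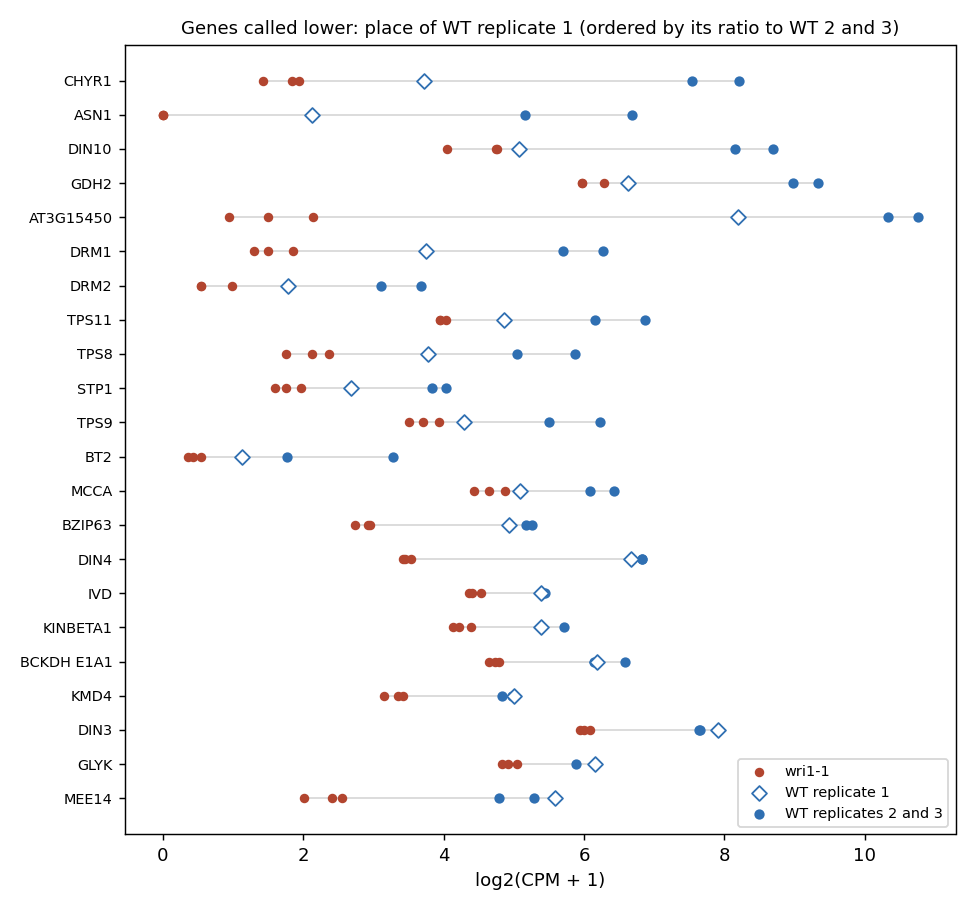
Place of WT replicate 1 for the 3 members and the 19 starvation-induced genes called lower, as log2(CPM + 1). Red points are the 3 *wri1-1* libraries, filled blue points are WT replicates 2 and 3 and open diamonds are WT replicate 1. Genes run from those with the lowest ratio of WT replicate 1 to the lower of the other WT libraries (*CHYR1*, 0.0658) to the highest (*MEE14*, 1.75).

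Genes that sugar induces were read as the counterpart of the starvation list, and were also listed with earlier results of these data known. Of 11 tested, 4 were called higher in the libraries labelled *wri1-1* and none lower, against 1.08% of all genes called higher, and the median log2 fold change was 0.93. In edgeR, 5 were higher and 1 lower at an unadjusted p under 0.05, as were 9.86% and 15.3% of all genes tested. DESeq2 called 1 lower and limma-voom 0. The 1 in DESeq2 was *BAM5*, a β-amylase gene whose log2 fold change was -1.10 (edgeR adjusted p = 0.0717). In WT replicate 1, all 11 genes were above both other WT libraries, which held for 44.6% of all genes tested, and 4 were more than 2-fold above the higher of them (7.8% of all genes). The summed level was 1148 to 1504 CPM in the libraries labelled *wri1-1*, 1005 in WT replicate 1, and 359 and 370 in WT replicates 2 and 3.

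*APL4*, for a large subunit of ADP-glucose pyrophosphorylase in starch synthesis, had 95.7, 93.2 and 97.6 CPM in the libraries labelled *wri1-1* and 14.8, 11.2 and 8.63 CPM in WT. The groups were far apart, and the log2 fold change was 3.04 (SE 0.209, edgeR adjusted p = 3.3e-04). *APL3* was also called higher (1.67, adjusted p = 0.0122, edgeR). *GPT2*, which moves glucose 6-phosphate into plastids, had 168, 134 and 130 CPM against 42.7, 6.37 and 6.81 (log2 fold change 2.94, SE 0.726, edgeR adjusted p = 0.0455). WT replicate 1 lay between the libraries labelled *wri1-1* and the other WT libraries. *NIA1*, for nitrate reductase, was just within the adjusted p allowed (1.51, edgeR adjusted p = 0.0496).

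The groups overlapped for the flavonoid gene *CHS*, which was at 441 CPM in WT replicate 1, within the 383 to 474 CPM of the libraries labelled *wri1-1*, and 101 and 112 CPM in WT replicates 2 and 3. It was not called (log2 fold change 0.93, edgeR adjusted p = 0.339). *F3H*, which follows it in the pathway, was at 216 to 259 CPM against 137, 34.5 and 32.5 CPM in WT (1.77, edgeR adjusted p = 0.0921), and with the replicate block it was called higher (2.11, adjusted p = 0.0293). *GBSS1*, for granule-bound starch synthase, was not called (0.55). *APL4* alone was called in every comparison with 1 library left out. The number called higher was 1 without each *wri1-1* library, 6 without WT replicate 1, and 2 without either of WT replicates 2 and 3.

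**Figure D4:**
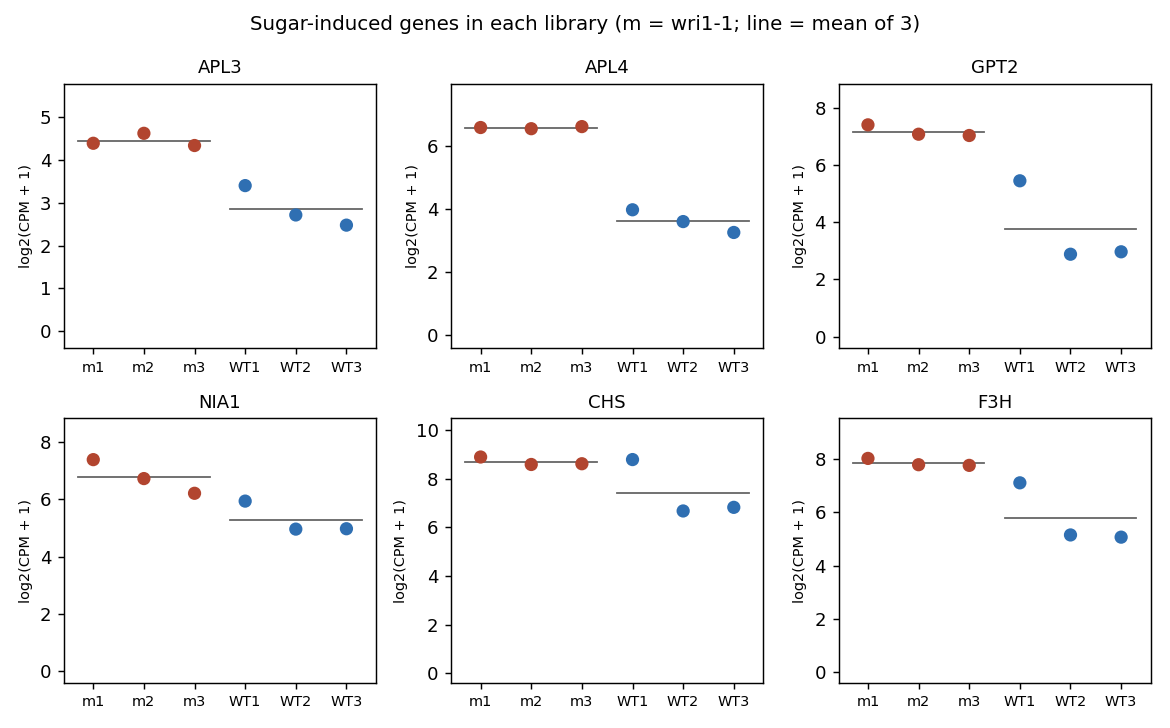
mRNA level of 6 sugar-induced genes in each library, as log2(CPM + 1). Points are libraries (m1 to m3 are *wri1-1* replicates 1 to 3, WT1 to WT3 are WT replicates 1 to 3), lines are means of the 3 log2 values, and each panel has its own scale. WT replicate 1 is the highest WT library in every panel and for *CHS*, at 441 CPM, lies within the *wri1-1* libraries.

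Other values differed between WT replicate 1 and the other WT libraries as well. Of the clock genes, the morning genes *CCA1* (13.8 against 5.66 and 3.80 CPM) and *PRR9* (3.30 against 0.265 and 0.259 CPM) were higher in it. The evening gene *TOC1* was lower (56.7 against 191 and 157 CPM). Of 12 clock genes, 4 were more than 2-fold above and 3 more than 2-fold below both other WT libraries, against 7.8% and 6.89% of all genes tested. In the libraries labelled *wri1-1*, replicate 1 was the highest for *CCA1* (24.6 against 10.9 and 9.81 CPM) and the lowest for *TOC1* (94.8 against 118 and 127 CPM). Between genotypes, *ELF4* alone of the 12 was called, as lower (-2.02, edgeR adjusted p = 0.0127), against 5.31% of all genes tested. The call of *ELF4* was lost when any 1 of the *wri1-1* libraries was left out. With the replicate block *CCA1* was called higher (1.03, adjusted p = 0.0357). The part of sampling time in the level of the members was not tested.

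The endosperm markers summed to 396 CPM in WT replicate 1 and to 73.4 and 130 CPM in the other WT libraries, mainly through *EPR1* (344 against 40.9 and 80.7 CPM). In the libraries labelled *wri1-1* they summed to 75.9 to 265 CPM, so that their range overlapped that of WT. Of 5 tested, 1, *FWA*, was called higher (2.46, edgeR adjusted p = 0.0397), against 1.08% of all genes tested. DESeq2 called 2 higher and limma-voom 0, and the call of *FWA* was kept only when WT replicate 1 was the library left out. The seed coat markers summed to 384 CPM in WT replicate 1, 424 and 469 CPM in the other WT libraries, and 400 to 607 CPM in the libraries labelled *wri1-1*, with 0 of 5 called by edgeR, DESeq2 or limma-voom and 0 at an unadjusted p under 0.05. The embryo markers summed to 3486 CPM in WT replicate 1, 3736 and 5624 CPM in the other WT libraries and 3896 to 7290 CPM in the libraries labelled *wri1-1*. Some genes in this sum varied more between replicates. *CRU3* was at 0.823, 11.9 and 135 CPM in the libraries labelled *wri1-1* and at 115, 120 and 299 CPM in WT. *CRA1* was at 249, 556 and 2270 CPM and at 1068, 1409 and 2114 CPM. *CRU2* was at 62.4, 158 and 646 CPM and at 66.7, 81.0 and 298 CPM. *ABI3* varied less, at 558 to 618 and 440 to 503 CPM. *OLEO1* was at 2360 to 3320 and 1444 to 2178 CPM, *FUS3* at 176 to 243 and 164 to 201, and *LEC1* at 57.2 to 84.3 and 31.1 to 59.2. The log2 fold change was below 0 for 2 of the 7 (*CRU3* and *CRA1*) and above 0 for 5. For *OLEO1* and *ABI3* every library labelled *wri1-1* was above every WT library, as for 16.1% of all genes tested. None of the 7 embryo markers was called by any of the 3 tools. At an unadjusted p under 0.05 (edgeR) 3 were higher, as were 9.86% of all genes tested. The part of these other tissues in the members' levels was not tested.

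Because *DIN* mRNAs also rise in senescence, senescence genes were read in the same libraries. *SAG12*, a protease gene that defines late leaf senescence, and *SAG13* had at most 0.0885 CPM in any library, at or near 0. Of 7 senescence genes tested, 1 was called lower (against 5.31% of all genes tested), and the list's median log2 fold change was -0.21. It was *NAP*, a NAC factor gene, at 0.183, 0.148 and 0 CPM in the libraries labelled *wri1-1* and 1.26, 7.43 and 4.31 CPM in WT (log2 fold change -5.04, SE 0.902, edgeR adjusted p = 0.0143). The call of *NAP* was lost in limma-voom and when any 1 of the *wri1-1* libraries was left out. The genes of chlorophyll breakdown, *SGR1*, *NYC1*, *PAO* and *PPH*, were not called, with log2 fold changes from -0.31 to -0.09.

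Genes were ranked by likeness to *ASN1* among the 12286 that averaged 10 CPM or more. Those whose log2(CPM + 1) was most like that of *ASN1* over the 6 libraries, by Pearson's r, were *TPS11* (r = 0.9995), AT5G17530 (0.9992), the cytosolic invertase gene *CINV1* (0.9968), the protein kinase gene *STY46* (0.9961) and the PAS domain gene *PLPB* (0.9961). *ASN1* was at 0 in 3 of these 6 libraries, so the values rest mostly on the 3 WT libraries, which also differ in depth and composition. *CINV1* was at 53.4 to 57.0 CPM in the libraries labelled *wri1-1* and at 77.1, 140 and 121 CPM in WT. *STY46* was at 52.9 to 60.5 and at 102, 317 and 250 CPM, and *PLPB* at 20.1 to 23.1 and at 38.2, 140 and 108 CPM. These genes were picked for this likeness, so where WT replicate 1 lies in them restates the choice. *DIN10* was in place 105 (0.973) and AT3G15450 in place 269 (0.941).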

How the data were processed

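Reads left after rRNA removal were mapped by the authors to the primary transcripts of TAIR10. Bowtie 0.12.7 was used per the submitters' notes, which also name edgeR 3.10.5, and reads with several equally good places were dropped. The values used here are raw counts per transcript as deposited by the authors, not strand-specific. Genes whose reads also fit a near-identical copy lose reads by this rule. The deposited table of normalized values was not used. A line that named no transcript held 39.6% to 86.6% of each file and was left out.

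In R 4.3.3 with edgeR 4.0.16, counts were filtered (filterByExpr), scaled by TMM and tested with glmQLFit and glmQLFTest over 18241 genes. The edgeR test used in the study is not named in its methods. Calls needed an adjusted p (Benjamini-Hochberg) up to 0.05 and a log2 fold change beyond 1. The calculation was tested on simulated data. Alternatives were DESeq2 1.42.0 (test and size factors), limma-voom (limma 3.58.1), library size only, no filter, an adjusted p of 0.01, a replicate block and each library left out. Standard errors are the absolute log2 fold change over the square root of F. The p-values measure the spread between biological replicates as labelled.

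The 6 genes and all lists were chosen with earlier results of these data known. Named were the members, the tested homologs, the called genes of each list, most of those with a mean of at least 100 CPM, and the 5 genes most like *ASN1*. Other list genes in the text were named after their values were seen. Libraries with the same replicate number deviated together from their group means (r = 0.246, 0.286 and 0.214, against -0.254 to 0.0359 for other pairs). This pairing comes from the data, since no shared batch is named, and the number of WT replicate 3 is uncertain. Of 24509 transcripts, 24169 had the same number in TAIR10.1, from which Python 3.11.15 read coordinates, lengths and sequences (the RefSeq copy of that assembly).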

Additional observations from a re-analysis of the deposited data

How the results depend on the processing

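Of the starvation genes, 19 were called lower with all libraries, 10 in limma-voom, 10 at an adjusted p of at most 0.01, and 8 to 21 with 1 library left out. Of the sugar-induced genes, 4 were called higher, 1 at an adjusted p of at most 0.01, and 1 to 6 with 1 library left out. Of the homologs, 1 was called, 2 with no filter on low counts, 4 in the DESeq2 test, and 1 to 4 with 1 library left out. Of the 6 members, 3 met the rule for a lower call, 1 in limma-voom, 1 at an adjusted p of at most 0.01, and 1 to 4 with 1 library left out. Leaving out a library removes 1 of 3 replicates of a group, and beside that the cause of these changes was not tested. With the replicate block, for libraries paired by number, 17 starvation genes were called lower, 5 sugar-induced genes higher, 2 homologs were called and 2 members met the rule. The calls it changed among the other genes named are those given above. The fold changes of the 4 members that passed the filter kept their sign under these settings. Scaling by library size only moved the median log2 fold change of all genes to 0.17 and gave 786 lower and 344 higher calls, against 968 and 197. The number of members lower in WT replicate 1 was 5 throughout, but *DIN2*, with 0 reads there, passes any such limit. *DIN2* is limited by depth.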
